A study of Mus musculus with 6 samples.

Results

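The genes described here are 10 targets of extracellular signal-regulated kinase (ERK) signalling, in neural stem cells grown with 20 ng/ml EGF and 20 ng/ml bFGF, the growth factors that switch this pathway on. They are Etv1, Etv4, Etv5, Spry1, Spry2, Spry4, Spred1, Spred2, Dusp4 and Dusp6. They were picked by name, as ETS factors and feedback inhibitors that EGF and FGF induce, with the presence, distance and score ranks of their peaks in these lists already in view. Those values are therefore given as descriptions, with no test. A peak belonged to a gene when the deposited annotation named that gene as the one with the nearest transcription start site (TSS). By this rule 78 of the 97783 peaks in the 6 deposited lists belonged to these genes, and none of them to Spry1. The lists name 18892 genes in all, and Spry1 is the only 1 of the 10 that none of them names.

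The peaks came from chromatin immunoprecipitation followed by sequencing (ChIP-seq) of primary neural stem cells, cultured from the cortex of newborn mice. The target in 4 libraries was Chd4, which powers the NuRD chromatin remodelling complex. These were iKO cells, of mutant genotype and given 4-OH-TAM in the medium, their control named Ctrl, cells named siSeh1, and their control named siSCR. Ctrl, siSeh1 and siSCR have the genotype wild type and growth medium as treatment in the labels. The title of the series speaks of deletion of the nucleoporin Seh1, and the labels do not spell out iKO, siSeh1 or siSCR. Seh1 was the target in the other 2 libraries. Seh1-flag is titled iKO and was given 4-OH-TAM, yet its genotype label reads wild type, and the header name of its list starts with oe. Seh1 Ctrl came from wild type cells in growth medium. All 6 cultures had EGF and bFGF, so no library shows these genes without the growth factors.

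Each group was 1 library, so no difference below has a replicate check and the sequencing depth is unknown. The lists differ in length: 21294 peaks for Chd4 iKO against 1154 for Chd4 Ctrl (18.5 times), 26935 for siSeh1 against 2606 for siSCR (10.3 times), 24961 for Seh1-flag and 20833 for Seh1 Ctrl. What list length contributes to the differences below was not tested, apart from the lists cut to equal length. Peak lists do not measure RNA, so neither the expression of the 10 genes nor the identity of the cells can be read from them. Of 8 marker genes of neural stem cells, Hes1 had a Chd4 promoter peak in iKO, and Hes1 and Sox2 had one in siSeh1. Of 6 oligodendrocyte markers, Olig1 had one in iKO, and Olig1, Olig2 and Sox10 had one in siSeh1. No marker of neurons, astrocytes, microglia or endothelium had one in any Chd4 list, and none of the 30 markers had one in Ctrl or siSCR. Over all 30 markers the share was 6.67% in iKO and 16.7% in siSeh1. Of all protein-coding genes, 5.18% had a promoter peak in iKO, 11.8% in siSeh1, 0.0183% in Ctrl and 1.63% in siSCR. The marker lists are short, so nothing about cell types is read from these counts.

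EGF and FGF bind receptor tyrosine kinases, which act through RAS, RAF and MEK on the kinase ERK. Active ERK raises the transcription of a set of early targets. Etv1, Etv4 and Etv5 form the PEA3 subfamily of ETS transcription factors and carry the signal on to further genes. The Sprouty genes (Spry1, Spry2, Spry4) and the Spred genes (Spred1, Spred2) encode inhibitors that act upstream of ERK, and Dusp4 and Dusp6 encode phosphatases that switch ERK off. In the developing brain several of these genes serve as markers of local FGF activity.

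Of these 10 genes, Etv5 had the clearest Chd4 promoter peak, with summits in iKO and siSeh1 that lay 19 bp apart. The bases just upstream of its start are shown because both summits fall in them. The stretch is chr16:22439571-22439820 on the minus strand, from RefSeq on GRCm38.p6, the assembly that mm10 represents, written 5′ to 3′ as the 250 bases before the start at 22439570. Capitals mark the letters CCAAT, the core bound by the factor NF-Y in many promoters. Upstream bases of Spry1 (chr3:37639697-37639946, plus strand) are shown for comparison, since no peak of any list was assigned to Spry1. There the capitals mark ATTGG, which is the same motif on the other strand.
Etv5: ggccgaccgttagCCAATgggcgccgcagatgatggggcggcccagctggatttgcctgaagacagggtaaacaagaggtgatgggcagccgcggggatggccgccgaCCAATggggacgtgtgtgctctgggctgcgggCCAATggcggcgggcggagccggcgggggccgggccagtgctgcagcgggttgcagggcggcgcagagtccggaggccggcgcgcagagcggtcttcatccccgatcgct
Spry1: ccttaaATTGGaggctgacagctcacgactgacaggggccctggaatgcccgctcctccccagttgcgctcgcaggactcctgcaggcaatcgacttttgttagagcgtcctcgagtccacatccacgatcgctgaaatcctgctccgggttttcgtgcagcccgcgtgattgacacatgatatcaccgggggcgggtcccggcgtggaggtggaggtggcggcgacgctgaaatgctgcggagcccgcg

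In the Etv5 stretch the letters CCAAT begin at bases -237, -142 and -110, all on the strand of the gene. The siSeh1 summit at base -227 and the iKO summit at base -208 lie between the first and the second of them. Of the 32851 upstream windows of 250 bp in the RefSeq table, 33.8% hold CCAAT on either strand and 2.79% hold it at least 3 times. This motif was chosen after the sequence was seen, and a match of letters is a description and no evidence of a bound factor. G and C make up 71.2% of the Etv5 stretch, against a median of 52.4% over all windows, and 7.83% of windows have as much or more. The Spry1 stretch has 62.4% G and C and 1 CCAAT. CpG pairs number 27 in the Etv5 stretch and 23 in the Spry1 stretch, and the median of all windows is 6.

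Motifs of the factors that ERK is known to act on were looked for on both strands of the 300 bp windows from 250 bp before to 50 bp after the start. These were CCGGAAG for ETS factors, TGANTCA for AP-1 and TGACGTCA for CREB. The table holds 9 windows for 7 of the 10 genes: Etv1, Etv5, Spry1, Spry2, Spred1, Spred2 and Dusp6. None of the 9 windows holds any of the 3 motifs, and over all windows the shares that hold them are 8.86%, 7.81% and 1.79%. No match says only that these letters are not in these windows. CCAAT is found in 5 of the 9 windows, at Etv5 in both of its start windows and once each at Spry1, Spred2 and Dusp6, against 37.4% of all windows.

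Promoter peaks of the 10 genes were found at Etv5 and Etv4 alone, in 3 of the 78 peaks. A promoter peak is one within 1000 bp of the nearest TSS by the deposited distance. Of all peaks of a list, such peaks were 5.96% in iKO, 0.607% in Chd4 Ctrl, 10.5% in siSeh1 and 15.0% in siSCR. They were 1.53% in Seh1-flag and 1.35% in Seh1 Ctrl. Etv5 had its Chd4 peak in iKO 208 bp upstream of its start, at position 22439778 on chromosome 16. The nearest peak in Chd4 Ctrl lay 3329487 bp away and was assigned to Trp63. In siSeh1 the peak lay 227 bp upstream, at 22439797, and the nearest siSCR peak lay 418185 bp away, assigned to Tbccd1. Both perturbed lists thus have a summit in the promoter of Etv5, and neither control list has one. The nearest Seh1-flag peak lay 85455 bp from the Etv5 start and the nearest Seh1 Ctrl peak 72649 bp, so neither Seh1 list has a peak near the Chd4 summits.

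The Etv5 peaks ranked high within their own lists. The score deposited with each peak, on an unstated scale, was 17.1 in iKO, rank 44 of 21294 peaks (0.207%, the rank as a share of the list). In siSeh1 it was 15.5, rank 180 of 26935 (0.668%). The median deposited score over all peaks was 3.39 in iKO and 3.35 in siSeh1. Among the genes with a promoter peak, Etv5 was 17th of 1245 in iKO and 148th of 2750 in siSeh1, where the medians were 4.74 and 5.14. No other coding or noncoding gene of the RefSeq table has an end within 1000 bp of these summits; the nearest is Dgkg, 26790 bp from the iKO summit. The 19 bp between the summits is a usual distance for such genes: over 728 genes with a promoter peak in both lists the median was 52 bp, and 19.5% had summits at most 19 bp apart.

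Etv5 also held a weaker Chd4 peak inside the gene in siSeh1, in intron 5 of 12, 9168 bp after the nearest start, with score 3.65 and rank 11354. The protein-coding genes with the pattern most like that of Etv5 were Paip2b, which encodes a repressor of poly(A)-binding protein, Stard4, a sterol carrier, and Cdc25c, a phosphatase of mitotic entry. Likeness was taken as the same presence over the 6 lists and the smallest distance between percentile ranks among promoter genes in iKO and siSeh1, over 461 genes of that pattern including Etv5. Their scores were 15.9 in iKO and 15.4 in siSeh1 for Paip2b, 14.8 and 15.5 for Stard4, and 13.6 and 19 for Cdc25c.

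**Figure D1:**
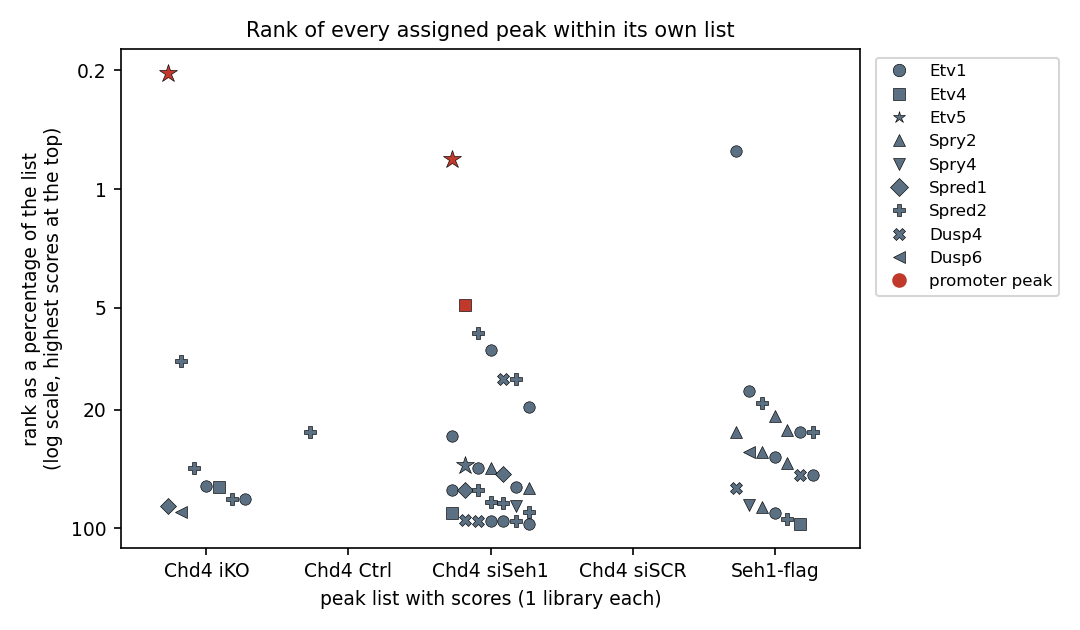
Rank of every peak assigned to the 10 genes within its own list, as a percentage of the list on a log axis with the highest scores at the top, for the 5 lists that carry scores; each symbol is 1 peak, offset sideways to be seen, and red marks promoter peaks. The Etv5 promoter peaks stand at 0.207% of the iKO list and 0.668% of the siSeh1 list, the Etv4 promoter peak at 4.79% of siSeh1, and siSCR has no peak.

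Etv4 had a Chd4 promoter peak in siSeh1 and in no other list. It lay 198 bp upstream of the start, at 101785508 on chromosome 11, with score 6.28 and rank 1289 of 26935 (4.79% of the list). Among promoter genes it was 1003rd of 2750, so its score was a common one for a promoter in that list. The nearest siSCR peak lay 568762 bp away. In iKO the nearest peak lay 47438 bp from the start and was assigned to Dhx8, and the Chd4 Ctrl list had none within 778199 bp. An end of the long noncoding RNA gene Gm39392 lies 187 bp from the siSeh1 summit, so the peak cannot be given to Etv4 alone. The nearest Seh1 peaks were 19804 bp away in Seh1-flag and 22473 bp away in Seh1 Ctrl.

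Etv1 held the most peaks of the set, 25 of 78, and none of them lay in the promoter window. Its peaks numbered 2 in Chd4 iKO, 0 in Ctrl, 9 in siSeh1, 0 in siSCR, 6 in Seh1-flag and 8 in Seh1 Ctrl. Etv1 lies in a long stretch without other protein-coding genes: 1399051 bp separate its coding neighbours Dgkb and Arl4a. The closest peak was in siSeh1, 1298 bp upstream of the start in a CpG island, with score 2.27 and rank 25230 of 26935, near the bottom of the list. The strongest was a Seh1-flag peak in a LINE element 139163 bp after the nearest start, with score 14.6 and rank 149 of 24961 (0.597%). Inside the gene, Seh1-flag had a peak in intron 5 of 11, and Seh1 Ctrl had peaks in intron 7 of 11 and in exon 9 of 10. Another LINE element, 346 kb from the nearest start, held a siSeh1 peak at 39130017 within a Seh1 Ctrl interval from 39129712 to 39130230.

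The Sprouty genes had 3 Chd4 peaks in all, each in siSeh1 and none in the promoter window. Spry2 had 2 in siSeh1, 7675 and 47492 bp upstream, with scores 3.25 and 3.59 (ranks 15536 and 11846), against 0 in siSCR. It had 0 in iKO and 0 in Ctrl. The 6 Seh1-flag peaks of Spry2 lay 9087 to 92949 bp from its start, with scores of 3.62 to 6.26, and its 3 Seh1 Ctrl peaks 35500 to 112335 bp from it. Spry4 had 1 Chd4 peak in siSeh1, 55734 bp upstream with score 2.87, and 1 Seh1-flag peak 16298 bp beyond its start. That siSeh1 peak lay past the near end of the coding neighbour Arhgap26. The stretch between Ndfip1 and Arhgap26, the coding neighbours of Spry4, held 0 siSeh1 peaks. Spry1 had none in any list: the nearest Chd4 peaks were 232470 bp away in iKO, 149190 bp in Ctrl, 43772 bp in siSeh1 and 236257 bp in siSCR, all assigned to other genes.

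Spred2, whose protein restrains RAS and RAF, had 18 peaks, second to Etv1. They numbered 3 in Chd4 iKO against 1 in Ctrl, 7 in siSeh1 against 0 in siSCR, 3 in Seh1-flag and 4 in Seh1 Ctrl. In siSeh1, 2 of them lay on CpG islands on either side of the start. One was 4154 bp upstream, with score 5.41 and rank 1905 of 26935 (7.07%), and the other 1431 bp downstream in intron 1 of 5, with score 2.996 and rank 18887. In iKO the closest peak was 50110 bp upstream with score 4.74 (rank 2189 of 21294), and the single Ctrl peak lay 133940 bp upstream in an LTR element, with score 4.22 (rank 311 of 1154). All 3 Seh1-flag peaks of Spred2 lay in introns, 22616 to 75491 bp after the start. One of its 4 Seh1 Ctrl peaks was intronic too, 9705 bp after the start.

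Spred1, which encodes a related RAS inhibitor mutated in Legius syndrome in humans, had 1 assigned Chd4 peak in iKO, 43932 bp upstream, and none in Ctrl. In siSeh1 it had a peak 57123 bp upstream and one in intron 1 of 4, 23400 bp after the start, against 0 in siSCR. The deposited assignment hides a further peak of the control list. Chd4 Ctrl had a peak in intron 2 of 4 of Spred1, at 117155025 on chromosome 2 with score 3.28 (rank 770 of 1154), which the annotation gives to the microRNA gene Mir674. It was the only one of the 11 peaks inside the 10 genes to be assigned elsewhere. Counted by position, the bodies of the 10 genes held 0 Chd4 peaks in iKO against 1 in Ctrl, and 3 in siSeh1 against 0 in siSCR. Seh1-flag had 4 and Seh1 Ctrl 3. The same count over all protein-coding genes was not computed and the lists differ in length, so these counts are descriptions with no comparison.

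The phosphatase genes had no peak inside the gene or at the promoter in any list. Dusp4, whose product acts in the nucleus, had 3 Chd4 peaks in siSeh1 and 0 in siSCR. The closest lay 31064 bp upstream with score 2.59, and the strongest, with score 4.58 (rank 3562), lay 73594 bp beyond the start, inside an intron of a neighbouring gene. Dusp4 had no assigned peak in iKO or Ctrl, 2 in Seh1-flag and 1 in Seh1 Ctrl. Dusp6, whose product removes phosphate from ERK in the cytoplasm, had 1 Chd4 peak in iKO, 27883 bp beyond its start with score 2.71 (rank 17118 of 21294), and none in Ctrl. It had 0 in siSeh1, 0 in siSCR and 0 in Seh1 Ctrl, and 1 Seh1-flag peak 84992 bp beyond its start. Dusp6 is often used to read out ERK activity in tissue, and the iKO peak was the closest of any list to its start.

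**Figure D2:**
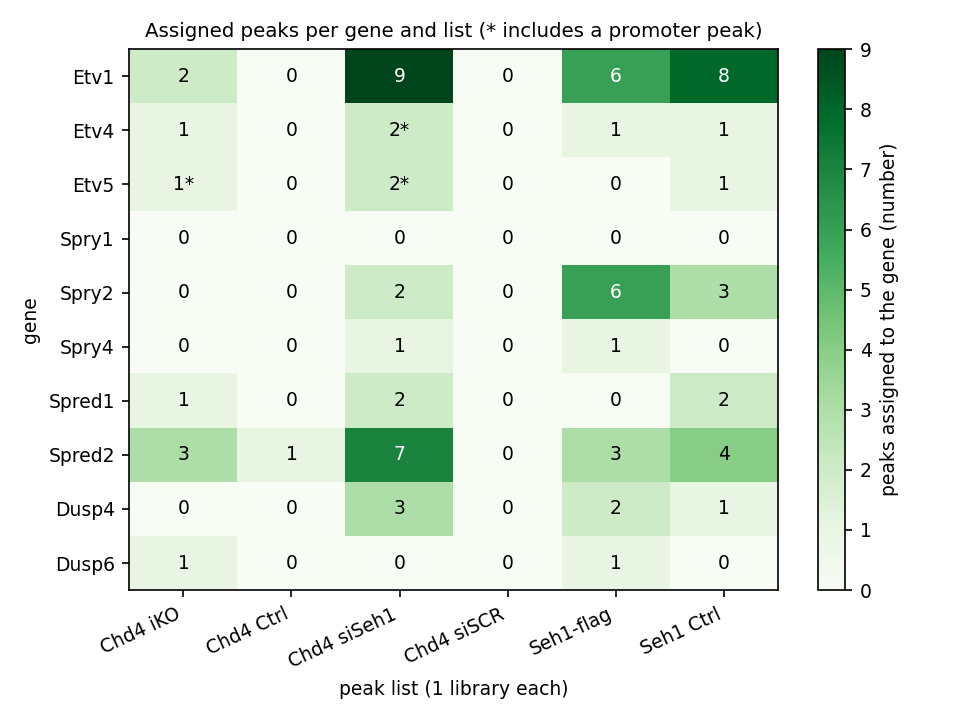
Number of peaks assigned to each of the 10 genes (rows) in each of the 6 lists (columns, 1 library each); shading follows the number, and an asterisk marks a count that includes a promoter peak. The asterisks stand at Etv5 in iKO and at Etv5 and Etv4 in siSeh1, and Etv1 (25 peaks) and Spred2 (18 peaks) have the highest totals.

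**Figure D3:**
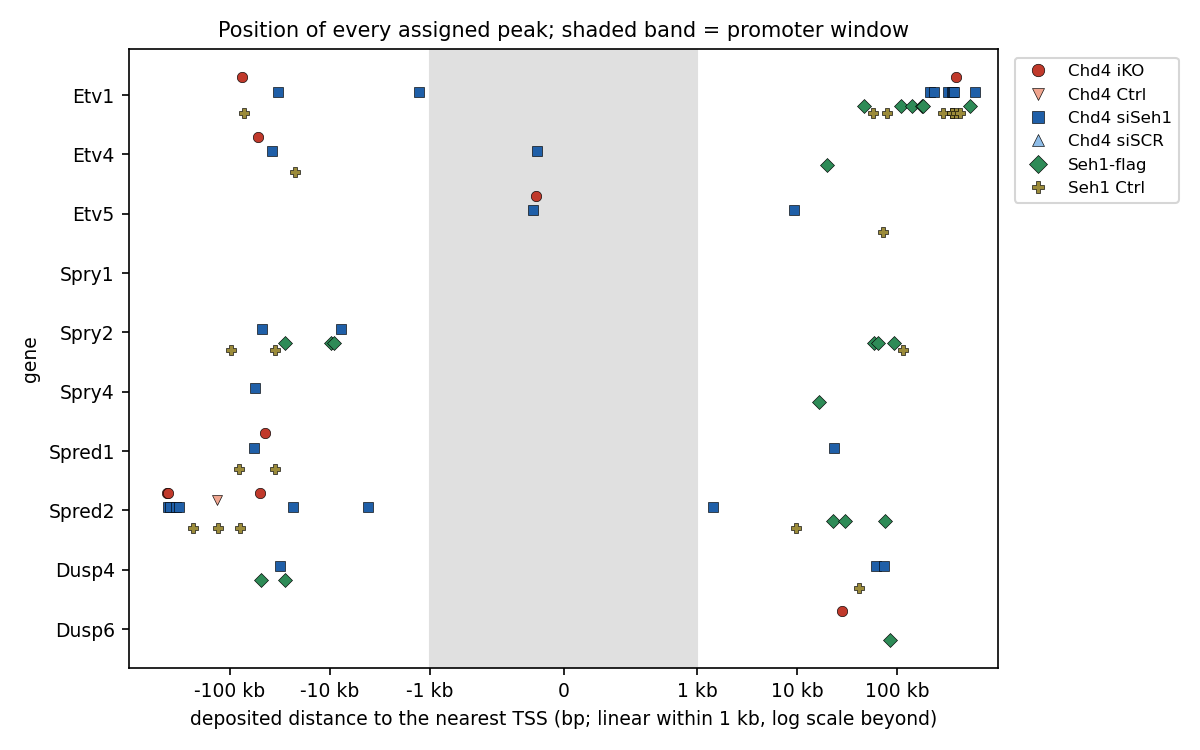
Deposited distance of each of the 78 assigned peaks from the nearest TSS, in bp, linear within 1 kb and logarithmic beyond, with negative values upstream; rows are genes, colours and symbols are lists, and the shaded band is the promoter window. The 3 peaks in the band lie 198 to 227 bp upstream of Etv4 and Etv5, and the next closest is 1298 bp upstream of Etv1.

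The number of members with a promoter peak is given beside the share of all protein-coding genes. In Chd4 iKO 1 of the 10 had one, against 5.18% of 21900 protein-coding genes. In Chd4 Ctrl 0 did, against 0.0183%. In siSeh1 2 of 10 had one, against 11.8% of all, and in siSCR 0 did, against 1.63%. Gained means a promoter peak in iKO or siSeh1 that the matching control lacks for that gene. By that count iKO over Ctrl gained Etv5 (1 of 10, against 5.18% of all genes), siSeh1 over siSCR gained Etv5 and Etv4 (2 of 10, against 10.5%), and both gained Etv5 (1 of 10, against 2.17%). With 10 genes, 1 more or fewer moves these shares by 10 percentage points, so nothing about the set is read from these shares. In both Seh1 lists 0 of the 10 had a promoter peak, against 1.33% of all genes for Seh1-flag and 1.02% for Seh1 Ctrl.

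At least 1 assigned peak was found for 6 of the 10 in Chd4 iKO, against 36.8% of all protein-coding genes, and for 1 in Ctrl, against 2.67%. In siSeh1 it was 8 of 10, against 46.4%, and in siSCR 0, against 7.47%. Seh1-flag and Seh1 Ctrl each had 7 of 10, against 38.9% and 34.1%. Etv1 and Spred2, with the most peaks, also have the longest stretches between coding neighbours, 1399051 and 1042652 bp. Of the assigned peaks, 61 of 78 were intergenic, 28 (35.9%) lay over 100 kb from the nearest start, and 11 lay within 10 kb. These shares were not computed over all peaks. The median distance was 51.8 kb in iKO, against 49.2 kb for its whole list, and 56.4 against 38.0 kb in siSeh1. It was 53.2 against 45.6 kb in Seh1-flag and 79.7 against 58.9 kb in Seh1 Ctrl. The 1 Ctrl peak lay at 134 kb, against a median of 86.1 kb.

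By position and whatever the assignment, the stretches between the coding neighbours of the 10 genes cover 5.40 Mb, 0.21% of the 2570 Mb between the outermost peaks of all chromosomes. They held 34 Chd4 peaks of iKO (0.161% of that list, exact 95% interval 0.111 to 0.225%) against 2 of Ctrl (0.176%, 0.0213 to 0.635%). They held 51 of siSeh1 (0.19%, 0.142 to 0.25%) against 1 of siSCR (0.0391%, 0.00099 to 0.218%). Seh1-flag had 46 there (0.186%, 0.136 to 0.247%) and Seh1 Ctrl 37 (0.179%, 0.126 to 0.246%). The interval of every list includes 0.21%. Intervals cover counting error only.

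As a share of each list, the assigned peaks were 9 in iKO (0.0423% of the list, 0.0193 to 0.0802%) against 1 in Ctrl (0.0867%, 0.00219 to 0.482%). In siSeh1 they were 28 (0.104%, 0.0691 to 0.15%) against 0 of 2606 in siSCR, for which the exact interval reaches 0.141% and the limit of 3 counts is 0.115%. With 1 and 0 peaks in the control lists, these shares are given as descriptions, with no comparison. Seh1-flag and Seh1 Ctrl had 20 each (0.0801% and 0.0960%).

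Repeats held 41 of the 78 (52.6%), with 15 in LINE, 10 in LTR and 9 in SINE elements. In siSeh1 13 of 28 peaks lay in repeats (46.4%, 27.5 to 66.1%), against 41.5% of that list, and in iKO 5 of 9 (55.6%, 21.2 to 86.3%), against 48.2%. Of the Seh1-flag peaks 12 of 20 did (60.0%, 36.1 to 80.9%), against 56.8% of its list, and of the Seh1 Ctrl peaks 10 of 20 (50.0%, 27.2 to 72.8%), against 49.1%. The deposited detailed annotation named a CpG island for 3 of the 28 siSeh1 peaks (10.7%), against 0.791% of the siSeh1 list. These are the peaks of Etv1 and Spred2 described above. That annotation names the Etv4 and Etv5 promoter peaks as promoter only, so islands at promoters can be missing from both shares. This feature was picked out after its values were seen. Of the 78 peaks, 4 overlapped a peak of another list when each summit was widened to 240 bp: the pair at the Etv5 promoter and the pair in the LINE element beyond Etv1. The share over all peaks of the lists was not computed, so this count is a description only.

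The rest of the pathway was read from 7 lists with 133 genes. In iKO 7 of the 133 had a Chd4 promoter peak (5.26%, against 5.18% of all protein-coding genes), and in Ctrl 0 (against 0.0183%). In siSeh1 22 had one (16.5%, against 11.8%), and in siSCR 4 (3.01%, against 1.63%). Gained were 7 in iKO over Ctrl, 18 in siSeh1 over siSCR, and 3 in both. Of all protein-coding genes, 5.18%, 10.5% and 2.17% were gained in the same way. None of the 133 had a promoter peak in Seh1-flag (against 1.33%) or Seh1 Ctrl (against 1.02%). The same shares of all genes are the background for each group below, and no group is read as differing from it. The genes below are named by their rank, and none of these counts is tested.

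Upstream of ERK, none of 18 ligand genes, Egf and Fgf2 among them, had a promoter peak in any list. Of 9 receptor genes, 2 had one in siSeh1 and 0 in siSCR, iKO or Ctrl: Erbb3 with score 4.58, and Fgfr2 with score 2.36, which lay 940 bp after its start and low in the list. Egfr and Fgfr1 had none. Of 21 adaptors and RAS regulators, 5 had one in siSeh1 and 0 in siSCR, and 1 in iKO and 0 in Ctrl. Cblb, a ubiquitin ligase of activated receptors, was gained in both comparisons (score 4.74 in iKO and 6.28 in siSeh1). Grb2, the adaptor between receptor and RAS exchange factor, had score 6.50 in siSeh1, Shc3 5.07, and Rasa1, a RAS GTPase-activating protein, 3.79. Among the 14 genes listed as RAF, MEK and ERK kinases, Mknk2, a kinase activated by ERK, had a siSeh1 promoter peak with score 3.05. Rps6ka2, another kinase that ERK activates, had one in iKO (8.39), in siSeh1 (7.19) and in siSCR (3.59).

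Downstream of ERK, 4 of 28 immediate early and other induced genes had a promoter peak in siSeh1 and 1 in siSCR, and 2 had one in iKO and 0 in Ctrl. Ier5 was gained in both comparisons (score 6.12 in iKO and 6.94 in siSeh1). Klf10 had the highest rank of this group, with 7.42 in iKO, 21.4 in siSeh1 and 6.68 in siSCR. Klf6 (7.19) and Junb (4.58) had one in siSeh1 only of the 6 lists, and Fos, Egr1, Myc and Ccnd1 had none. Of 23 other feedback inhibitors, 6 had one in siSeh1 and 1 in siSCR, and 2 in iKO and 0 in Ctrl. Dusp10, a phosphatase that prefers p38 and JNK, had 13.7 in siSeh1 and 8.39 in siSCR. Lrig1, which lowers the level of EGF receptors, had 10.9 in siSeh1, and Rasa3, a RAS and RAP GTPase-activating protein, was gained in both (3.83 in iKO and 5.00 in siSeh1). Socs3, an inhibitor of cytokine receptor signalling, had 3.79 in siSeh1. Of 20 other ETS genes, Ets1 had one in iKO (4.12), Elk1 had one in siSeh1 (7.84) and in siSCR (4.75), and Erf, an ETS repressor controlled by ERK, had one in siSeh1 (2.06). No gene of these 7 lists had an iKO promoter score as high as that of Etv5, and in siSeh1 Klf10 alone was above it.

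**Figure D4:**
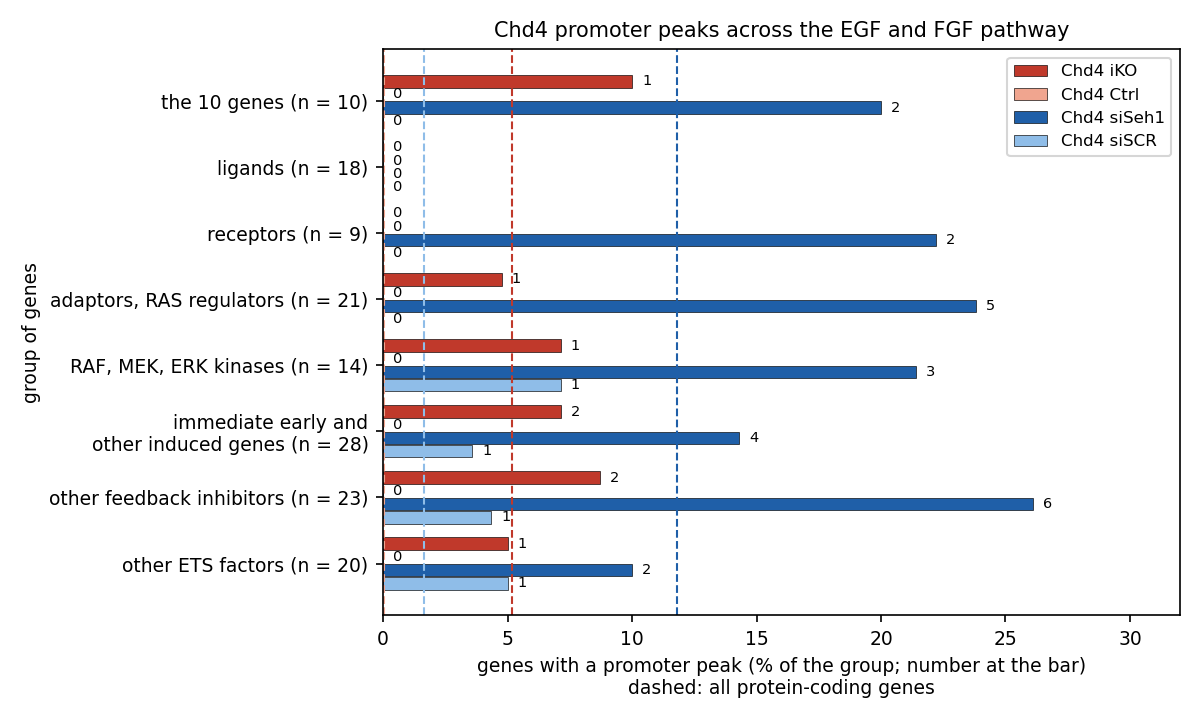
Share of genes with a Chd4 promoter peak (x axis, percent of the group, with the number of genes at each bar) for the 10 genes and 7 groups of the EGF and FGF pathway, in iKO, Ctrl, siSeh1 and siSCR (1 library each); dashed lines give the share of all protein-coding genes. Bars for siSeh1 are the longest in each group with a peak and the ligands have none, and the iKO share of the 10 genes rests on Etv5 alone.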

How the data were processed

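ChIP-seq peaks of 6 libraries were deposited as 1 HOMER annotation table each, on mm10, per the file headers. The submitters' processing notes list Bowtie2 and HOMER, with no version, and human builds, which were not used. What called the peaks, at which threshold, and against which input was not given in the sources used here. Each deposited score has no stated scale and was compared only within a list; in Seh1 Ctrl every deposited score is 0. Positions, TSS distances and gene names are the authors' values, per the file headers. The distance names only the nearest TSS.

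Computed here, with Python 3.11.15, numpy 2.4.6, pandas 2.3.3 and scipy 1.17.1, were ranks, counts, overlaps (summits widened to 240 bp, at least 1 bp shared) and exact Clopper-Pearson 95% intervals; the code was tested on simulated data. Peaks or genes with tied scores were all given the best rank of the tie. Gene spans, neighbours and promoter sequences are from RefSeq tables of GRCm38.p6. Strand came from the promoter table for 7 genes and from the deposited distances for 3. With 1 library per group no test across conditions was made. The genes, lists and alternatives were chosen with earlier results of these data known. All 10 genes are named, with up to 4 genes of each pathway list by mean percentile rank in iKO and siSeh1, every gene gained in both, and 3 genes most like Etv5. Genes said to have no promoter peak, and neighbouring genes, were named after their values were seen. A gene that this rule names in the kinase list is not reported here.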

Additional observations from a re-analysis of the deposited data

How the results depend on the processing

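With 1 library per group no library could be left out. No paired analysis was possible because every group has 1 library and no result comes from a test. Widening the promoter window to 2500 bp or to 5000 bp raised the genes with a siSeh1 promoter peak, and those gained over siSCR, to 4, by adding Etv1 and Spred2. The share of all protein-coding genes under these wider windows was not computed. The 4 is therefore not comparable with the shares given for 1000 bp. The added Etv1 peak ranks 25230 of 26935 in its list. Cutting all scored lists to the 1154 peaks of the shortest left 1 gene with a siSeh1 promoter peak (Etv5), and 1 gene with any assigned peak in iKO, in siSeh1 (both Etv5) and in Seh1-flag (Etv1). With a minimum score of 5, genes with any assigned peak numbered 1 in iKO, 0 in Ctrl, 4 in siSeh1 and 4 in Seh1-flag. For the cut lists and the minimum score, too, the share of all protein-coding genes was not computed. Their counts are therefore not comparable with the shares given for the full lists. Ranked among promoter genes in place of all peaks, Etv5 stood at 1.37% in iKO and 5.38% in siSeh1, and Etv4 at 36.5% in siSeh1; the cause was not tested. Of the values recomputed, 63 stayed within 1.5 times of the reported value, many of them counts of 0 that stayed 0, and 15 moved further. The gain of Etv5 in both comparisons stayed under every alternative run for it. Its ranks, scores and distances given above settle that outcome in advance, so these alternatives are no check of it.
The depth of the libraries is unknown, so the absence of a peak in the short control lists sets no limit on Chd4 binding there.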
